A study of Mus musculus with 6 samples.

Results

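MicroRNA (miRNA) hairpins of imprinted mouse domains other than Dlk1-Dio3 were followed in the small RNA of a mouse liver. They are miR-335 of the Mest domain, miR-483 of Igf2, miR-675 of H19, and miR-296 and miR-298 of the Gnas domain. The members were chosen by name, as both arms of these hairpins, which gave 10 of the 1963 distinct mouse mature sequences in the count table. All animals had received AAV9, an adeno-associated viral vector, with Cre recombinase driven by the Tnnt2 promoter, which comes from the cardiac troponin T gene and is active in heart muscle. The vector is AAV-Tnnt2-Cre in the Cre group and AAV-Tnnt2-Cre-miR122 in the Cre-miR122 group, where a further part is named for miR-122, a miRNA typical of hepatocytes, and the question of the series was how that vector affects liver miRNAs. The labels state neither what that part encodes nor the strain, age or sex of the animals. Of the 6 libraries they name, 3 a group, the one analysed here was Cre-miR122 replicate 2, so no value below has a replicate and the groups were not compared.

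Imprinted genes are expressed mainly from the chromosome inherited from one parent. Mest and Igf2 are expressed from the paternal copy, H19 from the maternal copy, and the Gnas domain holds transcripts of either kind. Igf2, H19 and Mest are growth-linked genes that are highly active in fetal liver and are largely shut off in the liver after birth. A miRNA inside such a gene can be cut from the same primary transcript by the nuclease Drosha and then by Dicer, which leaves a duplex of a 5p and a 3p arm. One arm is usually kept in Argonaute, where bases 2 to 8, the seed, guide the choice of target mRNAs. RNA of the host genes was not measured here.

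The mature sequences are shown because the results turn on where each arm begins and ends. They are the mouse entries of the deposited table, 5′ to 3′ in DNA letters, with the seed in capitals, and all 10 were identical to the RefSeq entries of the GRCm38.p6 assembly. Coordinates are those of RefSeq on the same assembly as mm10, the build named in the submitters' processing notes.
mmu-miR-335-5p, chr6:30741314-30741336, plus strand: tCAAGAGCaataacgaaaaatgt
mmu-miR-335-3p, chr6:30741354-30741375, plus strand: tTTTTCATtattgctcctgacc
mmu-miR-483-5p, chr7:142654968-142654989, minus strand: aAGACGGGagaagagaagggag
mmu-miR-483-3p, chr7:142654932-142654952, minus strand: tCACTCCTcccctcccgtctt
mmu-miR-675-5p, chr7:142577112-142577133, minus strand: tGGTGCGGaaagggcccacagt
mmu-miR-675-3p, chr7:142577078-142577099, minus strand: cTGTATGCcctaaccgctcagt
mmu-miR-296-5p, chr2:174267093-174267113, minus strand: aGGGCCCCccctcaatcctgt
mmu-miR-296-3p, chr2:174267058-174267079, minus strand: gAGGGTTGggtggaggctctcc
mmu-miR-298-5p, chr2:174267553-174267575, minus strand: gGCAGAGGagggctgttcttccc
mmu-miR-298-3p, chr2:174267512-174267535, minus strand: gAGGAACTagccttctctcagctt

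Each of these sequences lay in 1 annotated mouse hairpin, so none of its reads could be shared with a copy elsewhere in those hairpins. The 10 seeds all differed, and 0 other mouse mature sequences carried any of them. The miR-335 arms were poor in G and C, with 30.4% for the 5p and 36.4% for the 3p arm, while the other 8 members ranged from 50% to 68.2%. By composition only miR-335 thus stood apart from the other members.

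The hairpins also differed in their setting. In the GENCODE M21 annotation, Mir335 lay on the strand of Mest in the introns of all 7 Mest transcripts that span it. Mir483 lay likewise in the introns of 7 spanning transcripts of Igf2, the gene of a fetal growth factor, and of 1 transcript of Gm49394. Mir675 lay in an exon of 3 of the 4 transcripts of the long noncoding RNA H19 that span it. Mir675 and Mir483 are 77776 bases apart on chromosome 7. Mir296 and Mir298 are 378 bases apart on chromosome 2, inside no other annotated gene. The nearest was Nespas, an antisense RNA of the Gnas domain on the same strand, 13651 bases from Mir298.

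The library held 6661069 reads of mouse mature sequences. Levels are given as reads and as RPM, the reads in every 1000000 of these. Intervals in parentheses are exact 95% intervals, by Clopper-Pearson for shares, and cover counting error only, since PCR copies were counted as separate reads and 1 library was used. For a count of 0 the limit used is 3 reads, or 0.450 RPM, and the exact two-sided interval reaches 0.554 RPM. The labelled tissue was checked with markers, and all 6 hepatocyte miRNAs listed had reads, with 62.6% of mouse reads in all, most of it miR-148a-3p (57.9%). Striated muscle miRNAs, of which 5 of 6 had reads (miR-208a-3p had 0), held 15.8%, stellate cell and fibroblast miRNAs 2.15%, and nervous system miRNAs 0.0160%. Nearly all of the muscle share was miR-1a-3p and miR-206-3p (1.03%). The other muscle markers were low by mouse entries, with 0.0137% for miR-133a-3p, 0.00377% for miR-499-5p and 6 reads for miR-208b-3p. Counting end forms raised miR-133a-3p from 915 to 11609 reads, miR-499-5p from 251 to 370 and miR-208b-3p from 6 to 9. The muscle miRNA miR-1a-3p alone held 14.7%, more than the 3.54% of the hepatocyte miRNA miR-122-5p. The gap was smaller once the end forms described below are counted, with 1065891 reads for miR-1a-3p and 685102 for miR-122-5p. With miR-148a-3p left out of list and total, the hepatocyte list held 11.2% and the striated muscle list 37.4%, so the markers did not all go with the liver label. The part of RNA from other cells or tissues in the levels below was not tested. In a whole tissue, a few cells rich in a miRNA and many cells with little of it cannot be told apart.

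miRNAs of all 4 domains had reads, though H19 had only 3, and most of the reads came from Mest. Of the 10 members, 8 had at least 1 read and 5 had at least 10. Among all mouse sequences 27.8% had at least 1 read and 15.4% at least 10. No list was tested with 1 library. The members together held 2587 reads, 388 RPM (374 to 404), and miR-335 made up 89.2% of them.

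**Figure D1:**
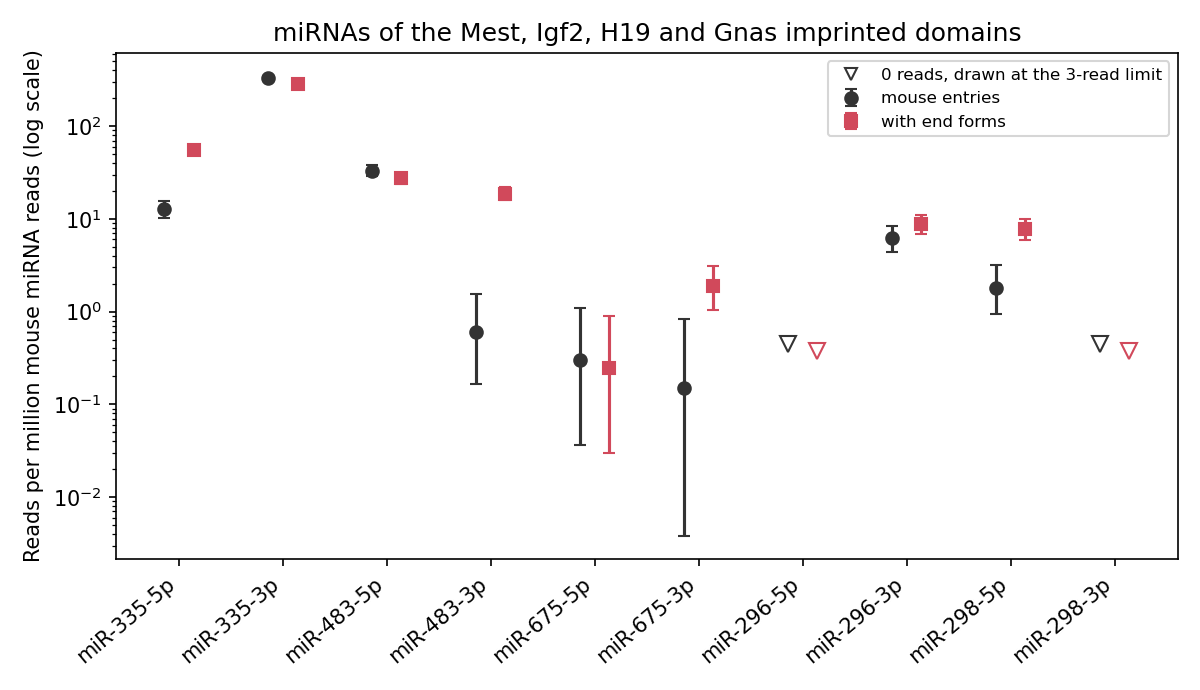
RPM of each member (log axis) by its mouse entry (circles) and with end forms (squares), with exact 95% intervals for counting error in 1 library. Open triangles mark members with 0 reads, drawn at the limit that 3 reads would give. miR-335-3p is highest under both counts, while miR-483-3p moves from 0.601 to 18.7 RPM.

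miR-335 of the Mest intron was the most abundant. Its 3p arm, mmu-miR-335-3p, had 2222 reads or 334 RPM (320 to 348), and its 5p arm, mmu-miR-335-5p, had 85 reads or 12.8 RPM (10.2 to 15.8). miR-335-3p took rank 51 among mouse sequences, between miR-30a-3p with 2326 reads and let-7e-5p with 2187. The 5p arm took rank 174. For scale, the liver miRNA miR-122-5p had 106 reads (102 to 111) per read of miR-335-3p, and 297.6 (286 to 310) once the end forms described below are counted.

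miR-483 of the Igf2 intron came next. Its 5p arm, mmu-miR-483-5p, had 220 reads or 33.0 RPM (28.8 to 37.7), rank 122 by mouse entries and 160 with end forms. The mouse entry of its 3p arm, mmu-miR-483-3p, had 4 reads or 0.601 RPM (0.164 to 1.54). The 2 arms of Mir335 together had 10.3 times the reads of Mir483 (8.98 to 11.9). miR-483-5p still outnumbered the minor arm of miR-335, at 2.59 reads per read of miR-335-5p (2.01 to 3.36).

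The Gnas domain pair was lower. mmu-miR-296-3p had 41 reads or 6.16 RPM (4.42 to 8.35), and mmu-miR-298-5p had 12 reads or 1.80 RPM (0.931 to 3.15). Their partner arms, mmu-miR-296-5p and mmu-miR-298-3p, were the only members with 0 reads. The neighbours thus left reads from opposite arms. Mir296 had 3.42 times the reads of Mir298 by mouse entries (1.76 to 7.14). Mir483 had 4.23 times the reads of the pair (3.12 to 5.82), and 2.80 times (2.29 to 3.45) with end forms counted.

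miR-675 of H19 was near the limit of detection. mmu-miR-675-5p had 2 reads, 0.300 RPM (0.0364 to 1.08), and mmu-miR-675-3p had 1 read, 0.150 RPM (0.00380 to 0.836). The sum of 3 reads is the number that a count of 0 would also allow. Mir483, its neighbour in the Igf2 and H19 domain, had 74.7 times as many reads (25.2 to 365). With the end forms described below counted, this ratio was 21.8 (13.4 to 37.8). The order by mouse entries was therefore miR-335, miR-483, miR-296, miR-298 and miR-675. The interval of each neighbouring ratio lay above 1, down to 1.08 for miR-298 over miR-675, with 4.0 reads per read and an upper bound of 22.1.

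**Figure D2:**
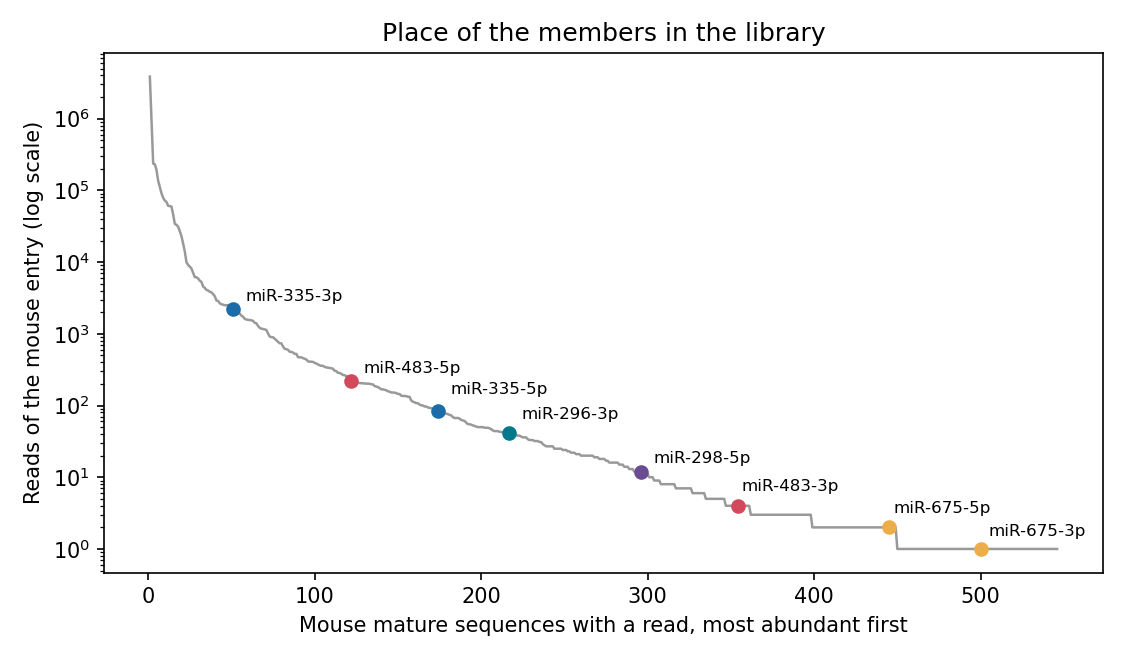
Reads of the mouse entry (log axis) for the 546 mouse sequences with a read, most abundant first, in 1 library, with the 8 detected members as coloured points. miR-335-3p stands at rank 51, the other detected members at rank 122 or lower, and sequences of equal reads are drawn in an arbitrary order.

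The mouse entries recorded only part of these arms. The table lists mature sequences of many species, and a same-named entry of another animal can equal a stretch of the mouse hairpin with other ends. Such an entry is called an end form here. Of 48 distinct sequences named miR-335, miR-483, miR-675, miR-296 or miR-298 in any species, 10 were the mouse entries, 9 were end forms and 29 matched no mouse hairpin. Of the end forms 8 had reads, and of the 29 others 0 had a read. Counting was by whole reads as far as the members show, because the 21-nt form of miR-335-5p, which is contained in both longer forms, had 20 reads against 344 and 85. Forms with ends that no entry records are not seen, and the arms differ in how many forms the table holds.

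For 5 arms the end form with most reads is printed, again with the seed in capitals, to show which ends moved; that of miR-335-3p is described below by its length. The first 2 keep the start of the mouse entry and are shorter, and the next 3 start 1 nt later, so that the seed itself moves.
miR-335-5p, end 1 nt earlier: tCAAGAGCaataacgaaaaatg
miR-298-5p, end 2 nt earlier: gGCAGAGGagggctgttcttc
miR-483-3p, start 1 nt later and end 2 nt later: cACTCCTCccctcccgtcttgt
miR-675-3p, start 1 nt later: tGTATGCCctaaccgctcagt
miR-296-3p, start 1 nt later: aGGGTTGGgtggaggctctcc

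For miR-483-3p nearly all recorded reads began at the later base. The mouse entry had 4 reads and the shifted form, which is the rat and guinea pig entry, had 146, or 97.3% of the arm (93.3 to 99.3). The arm rose to 150 reads, 37.5 times the mouse entry. miR-675-3p showed the same with fewer reads, 1 for the mouse entry and 14 for the form of the rat entry, or 93.3% of the arm (68.1 to 99.8). miR-296-3p was divided, with 41 reads for the mouse entry, 26 for the later start (37.1%, 25.9 to 49.5) and 3 for a form ending 2 nt earlier. The shifted seeds of miR-483-3p and miR-675-3p occurred in 0 other mouse sequences. That of miR-296-3p occurred in 1, miR-7066-5p, which had 0 reads.

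In most other mouse arms few recorded reads began at another base. Of 132 arms with at least 10 reads and a recorded form that starts elsewhere, the median share of reads at another start was 1.91%, and 21 arms were above 50%. In this order 5 arms were higher than miR-483-3p, 6 higher than miR-675-3p and 28 higher than miR-296-3p. This ranks single arms of 1 library and was not tested.

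**Figure D3:**
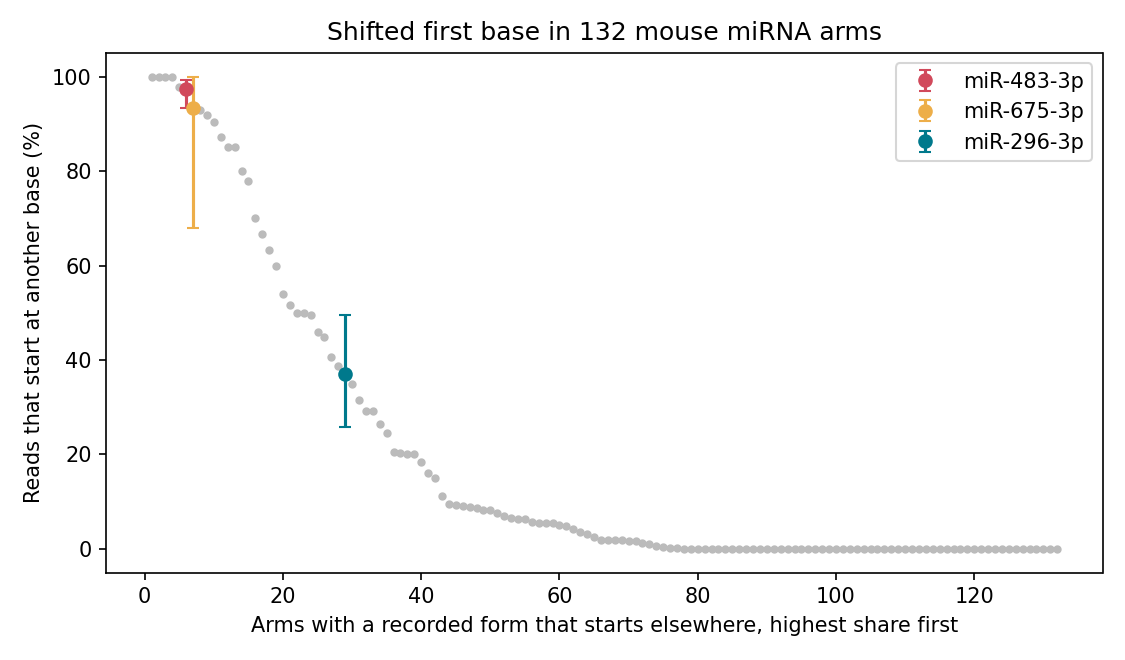
Share of reads that start at another base than the mouse entry, for the 132 mouse arms with at least 10 reads and a recorded form of that kind (grey points, highest first). miR-483-3p, miR-675-3p and miR-296-3p are coloured, with exact 95% intervals for counting error, at 97.3%, 93.3% and 37.1%.

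For miR-335-5p, miR-335-3p and miR-298-5p the table holds only end forms with the start of the mouse entry. A moved start could therefore not be seen in them, and their forms differ at the 3′ end only. For miR-335-5p the 22-nt form had 344 reads, 76.6% of the arm (72.4 to 80.5), against 85 for the 23-nt mouse entry and 20 for the 21-nt form. For miR-335-3p the mouse entry held 2222 of 2302 reads, 96.5% (95.7 to 97.2), and a form 1 nt shorter held 80. Among recorded forms, the arms of 1 hairpin thus differed in how far the mouse entry described them. The table holds 2 end forms for the 5p arm and 1 for the 3p arm, so other 3′ ends could not be seen. For miR-298-5p the form 2 nt shorter had 50 reads and the mouse entry 12, or 19.4% of the arm (10.4 to 31.4). For miR-483-5p and miR-675-5p the table holds 0 end forms, so shifts of either end could not be seen there.

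**Figure D4:**
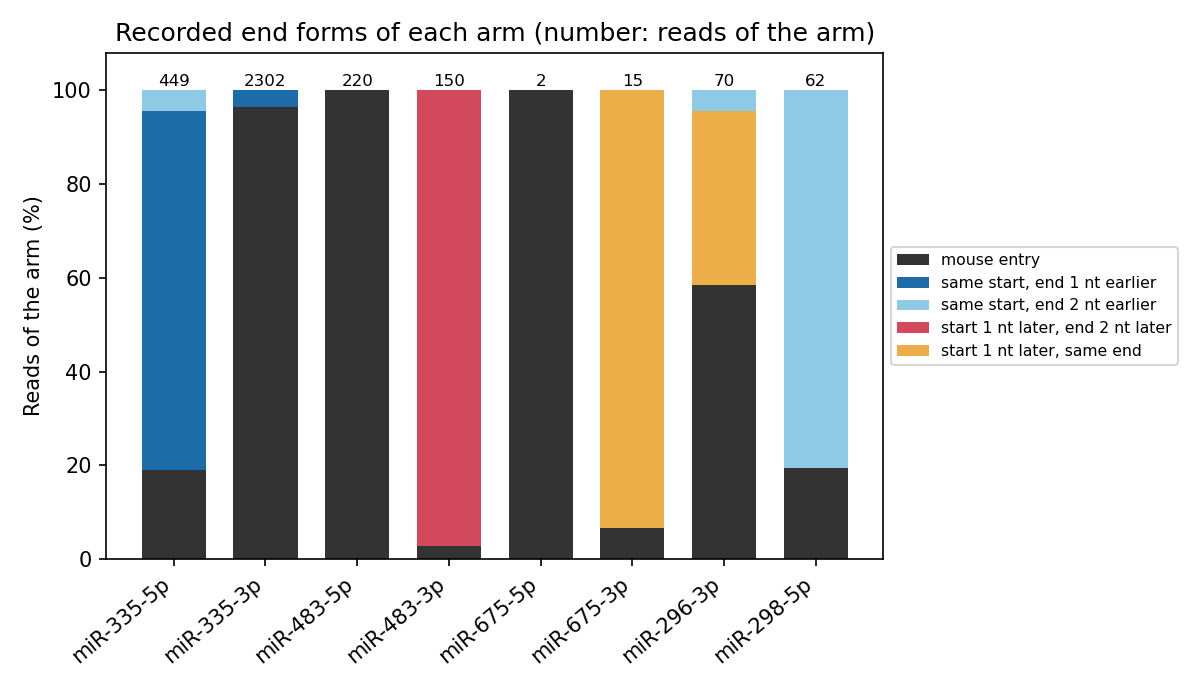
Percent of the reads of each arm held by the mouse entry and by each recorded end form, for the 8 members with reads in 1 library; the number above a bar is the reads of the arm. The mouse entry (dark) holds 96.5% for miR-335-3p and 2.67% for miR-483-3p.

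With end forms counted, levels are RPM of the 8032202 reads of mouse sequences and their end forms. The members held 3270 reads, 407 RPM (393 to 421), of which miR-335 made up 84.1%. Still 8 of 10 members had a read, and 7 had at least 10, beside 30.3% and 17.6% of all mouse sequences. Mir335 had 2751 reads, 342 RPM (330 to 356), and Mir483 had 370, 46.1 RPM (41.5 to 51.0). Mir335 then had 7.44 times the reads of Mir483 (6.67 to 8.31). Mir675 had 17 reads, 2.12 RPM (1.23 to 3.39), above the limit of 0.373 that a count of 0 allows.

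Some orders changed with this counting. miR-296 with 70 reads and miR-298 with 62 no longer differed beyond counting error, at 1.13 to 1 (0.791 to 1.62). miR-335-5p, with 449 reads, then exceeded miR-483-5p at 2.04 to 1 (1.73 to 2.41), where the mouse entries had the opposite order. The table holds 2 end forms for miR-335-5p and 0 for miR-483-5p, so only miR-335-5p could gain reads. The order of the hairpins was otherwise as by mouse entries, and miR-298 still exceeded miR-675 at 3.65 to 1 (2.11 to 6.65).

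Both arms of a hairpin are cut from the same transcript. For miR-335 the 3p arm led, with 26.1 reads per 5p read by mouse entries (21.0 to 32.9) and 5.13 with end forms (4.63 to 5.69). For miR-483 the 5p arm led by 55 to 1 (21.2 to 204) by mouse entries, but by only 1.47 to 1 (1.19 to 1.82) once the shifted 3p form was counted. No end form of the 5p arm could be counted, so the second ratio may miss 5p reads. For miR-675 the mouse entries, 2 against 1, gave no order, as the ratio of 5p to 3p was 2.0 (0.104 to 118). With end forms the 3p arm led by 7.5 to 1 (1.74 to 67.6). Here too no end form of the 5p arm could be counted, so this order may miss 5p reads.

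The Gnas domain hairpins were one-sided in opposite directions under both counts. miR-296-3p was at least 13.7-fold higher than its 5p arm by mouse entries and at least 23.3-fold with end forms, taking 3 reads in the library as the limit for the arm at 0 and leaving out the counting error of the other arm. miR-298-5p was at least 4.0-fold and at least 20.7-fold higher than its 3p arm on the same basis. With the counting error of both arms, the exact 95% lower bounds were 10.6 and 18.5 for miR-296 and 2.78 and 16.3 for miR-298. The table holds 0 end forms for either of the arms without reads. All these bounds therefore cover recorded forms only, and reads of those arms with other ends would not be seen.

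Set among all mouse miRNAs with both arms in the table, the Mest and Igf2 hairpins were less one-sided than most. Of 221 miRNAs with at least 10 reads including end forms, the leading arm held a median of 99.2% of reads, and the 5p arm led in 51.6%. The leading arm held 83.7% for miR-335 and 59.5% for miR-483, with 178 and 209 miRNAs more one-sided. For miR-675 it held 88.2%, with 169 more one-sided. No end form of the 5p arm of miR-483 or miR-675 could be counted in these shares. By mouse entries alone miR-483 had 98.2% on its 5p arm beside a median of 99.7% over 201 miRNAs, with 120 of them more one-sided. These places are descriptions of 1 library.

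**Figure D5:**
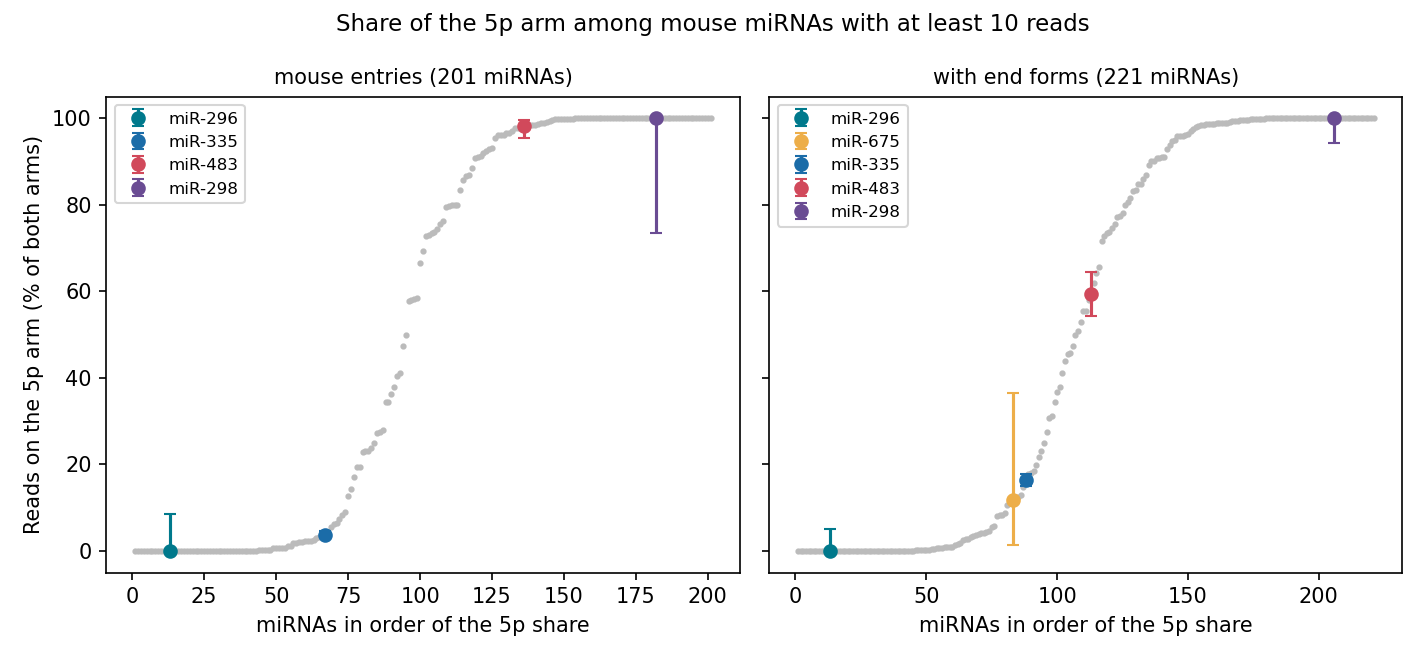
Percent of the reads of both arms that lie on the 5p arm, for mouse miRNAs with at least 10 reads in order of that share, by mouse entries (left, 201 miRNAs) and with end forms (right, 221). Coloured points are the members with exact 95% intervals for counting error; miR-483 falls from 98.2% to 59.5%, and miR-675 enters the right panel only.

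The ends of the forms were placed on the predicted folds of the hairpins. Those of Mest, Igf2 and H19, in which both arms had reads, are printed from RefSeq in RNA letters, with the mouse mature arms in capitals.
Mir335, chr6:30741299-30741396, plus strand: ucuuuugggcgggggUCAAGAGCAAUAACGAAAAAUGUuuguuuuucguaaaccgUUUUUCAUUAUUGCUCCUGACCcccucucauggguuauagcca
Mir483, chr7:142654924-142654996, minus strand: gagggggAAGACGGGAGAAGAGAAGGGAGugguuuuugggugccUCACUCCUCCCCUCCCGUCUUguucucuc
Mir675, chr7:142577064-142577147, minus strand: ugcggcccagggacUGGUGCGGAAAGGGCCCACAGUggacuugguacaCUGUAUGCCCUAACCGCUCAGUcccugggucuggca

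Drosha and Dicer each typically leave a 3′ overhang of 2 nt. In the minimum free energy fold of Mir483, the mouse entries of both arms end flush at the base of the stem, with an overhang of 0 nt, and the forms with most reads leave 2 nt there. In Mir675 the overhang at the loop end is 1 nt with the mouse entries and 2 nt with the forms with most reads. In Mir335 it is 3 nt with the 23-nt mouse entry of the 5p arm and 2 nt with the 22-nt form. At the base of the stem it is 2 nt in Mir335, Mir675 and Mir296 and 1 nt in Mir298, with either form. In Mir296 it is 0 nt at the loop end. Mir298 went the other way at the loop end, from 2 nt with the mouse entry to 0 nt with the shorter form, but the 3p arm of Mir298 and the 5p arm of Mir296 had 0 reads, so those duplexes were not observed. In Mir483 the first bases of the 3p arm are unpaired, and the offset at its loop end, -3 nt with the mouse entries and -2 nt with the forms with most reads, is no overhang of 2 nt either. The 5p arms of Mir483 and Mir675 have only the mouse entry as a recorded form, with 220 and 2 reads. All overhangs given here rest on predicted folds, and the steps that set the ends were not tested.

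By summed RPM the members lay between a high and a low list of other imprinted miRNA loci, but not by the share of sequences with reads or by the median. The Dlk1-Dio3 list, named by miRNA number, held 45676 RPM, with reads for 72 of its 111 sequences (64.9%). The Sfmbt2 list, the rodent repeat cluster of miR-297, miR-466, miR-467 and miR-669, held 24.8 RPM, with reads for 17 of 71 (23.9%). The share of all mouse sequences with a read was 27.8%. The members held 388 RPM, 85.9% of it miR-335-3p, with reads for 8 of 10 (80%). Their median was 8 reads a sequence, as in the Dlk1-Dio3 list, where miR-381-3p alone made up 63.2%, and the Sfmbt2 median was 0. miR-467a-5p, the highest of the Sfmbt2 list, had 74 reads beside 85 for miR-335-5p, and no interval was computed for that ratio. The lists go by miRNA number, so the Sfmbt2 list may include copies that lie elsewhere in the genome.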

How the data were processed

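Total RNA was ligated to adapters at both ends, amplified and sequenced as single reads, per the labels' protocols, which name no molecular identifiers. Per the file headers, the deposited values are raw whole-number read counts of 1 cleaned library for each mature miRNA entry. The submitters' processing notes name mm10. The program that counted the reads, its settings and its miRNA list: not given in the sources used here. Each library column was matched by the title of its sample (Cre-miR122 replicate 2), which left 0 columns unmatched.

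The 48885 entries hold 30721 distinct sequences, each counted once; entries of equal sequence had equal counts (0 exceptions). An entry longer by up to 5 nt at its 3′ end exceeded the shorter one in 809 of 1726 such pairs with reads. End forms are other-species entries found exactly in the 2202 GENCODE M21 miRNA hairpins (GRCm38) that overlap 1 mouse entry most, by at least 15 nt. Intervals are exact: Clopper-Pearson for shares, binomial given the sum for ratios. Both, and the assignment of end forms, were tested on simulated data. With 1 library, no group comparison was run. Folds are from RNAfold 2.7.2. Named miRNAs are the members, their end forms with at least 10 reads, fixed scale and marker miRNAs, seed mates, the nearest in reads and the top of each list; those in the closing observations and the 3-read form of miR-296-3p were named after their values were seen. Members, lists and rules were chosen with earlier results of these data known. Other totals, 3 definitions of end forms and a minimum of 10 reads were also tried. Software: Python 3.11.15, SciPy 1.17.1, NumPy 2.4.6, matplotlib 3.10.9.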

Additional observations from a re-analysis of the deposited data

How the results depend on the processing

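The RPM values depend on the denominator and on end forms. Over all sequences of the table, Mest held 283 and Igf2 27.4 RPM, and H19 and the Gnas domain stayed within their intervals. Without miR-148a-3p in the total, Mest held 823, Igf2 79.9, the Gnas domain 18.9, all members 922, the Dlk1-Dio3 list 108475 and the Sfmbt2 list 58.8. Those moves follow from the smaller total. With end forms, Igf2 held 46.1, H19 2.12, the Gnas domain 16.4, all members 407, the Dlk1-Dio3 list 47508 and the Sfmbt2 list 20.5, and Mest stayed within its interval. For miR-483 and miR-675 the table holds an end form of the 3p arm only. The ratio of 5p to 3p reads moved with end forms to 0.195 for miR-335 and 1.47 for miR-483, and reversed to 0.133 for miR-675. With only end forms of the same first base it was 0.195 for miR-335, and stayed at 55 for miR-483 and 2 for miR-675, so the last 2 changes came from the shifted starts. For miR-298 no such ratio exists, since its 3p arm had 0 reads. Of the 10 members, 8 had a read and 5 had at least 10. Requiring 18 nt of overlap left the same 5 members up and 2 down as 15 nt. No paired analysis was possible because the work rests on 1 library, and leaving out replicates was not run for the same reason. Depth limits what can be said of miR-675, with 3 reads by its mouse entries, and of miR-296-5p and miR-298-3p, with 0.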

Other observations

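The shift of the first base seen in miR-483-3p and miR-675-3p also occurred in the Dlk1-Dio3 list, whose arms were looked at after their values were seen. Of its 25 arms with at least 10 reads and a recorded form that starts elsewhere, 6 had most reads at another start, or 24%. Of the 104 arms in neither group 13 did, or 12.5%, and the difference was not tested. Of the 6, 3 had 0 reads by their mouse entry. miR-382-3p had 2023 reads with end forms, miR-496a-3p had 93 and miR-485-3p had 55. miR-136-3p went from 27 to 2552 reads, of which 91.8% began at another base. miR-127-5p went from 100 to 1883 reads, with 77.9% at another base, and miR-377-3p from 11 to 35, with 60%.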
